A study of Rattus norvegicus with 6 samples.

Results

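Glutamate uptake and conversion was read through 9 genes: the transporters Slc1a3, Slc1a2, Slc1a1 and Slc1a4, the enzymes Glul and Glud1, and the glutamine carriers Slc38a1, Slc38a2 and Slc38a3. Every probe set that the platform annotation assigns to one of these symbols alone was taken, which gave 9 of the 14217 genes with a probe set of their own and 18 of the 31042 probe sets that are not controls. A probe set is the group of short probes with which an Affymetrix rat expression array reads a transcript. The values are MAS5 signals, a linear brightness that the authors scaled to a common level on each array. In total 15 of the 18 probe sets, at least 1 for each gene, had a mean log2 signal above the 40th percentile of all probe sets, a signal of 66.7, and were tested. The other 3 are given by their values.

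The cultures were primary astrocytes of the rat spinal cord, grown to confluence and kept for 24 hours in supplemented L15 medium before RNA was taken. There were 3 arrays of nontransgenic cultures (NonTG) and 3 of cultures from rats transgenic for hSOD1G93A, the human superoxide dismutase 1 with a substitution linked to familial amyotrophic lateral sclerosis. Each group has an array lettered A, B and C. The labels used here give no age or sex of the rats, no number of animals per culture and no promoter of the transgene, and nothing names separate cultures. A p-value here therefore stands against the spread among 3 arrays of a group, part of which can be technical.

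Astrocytes clear glutamate from the space around synapses through sodium-coupled transporters of the Slc1 family. Inside the cell, glutamine synthetase (Glul) joins glutamate with ammonia to glutamine, and glutamate dehydrogenase (Glud1) links glutamate to the citric acid cycle in mitochondria. Glutamine leaves astrocytes mainly through system N carriers such as Slc38a3 and enters neurons through system A carriers such as Slc38a1 and Slc38a2. Loss of the transporter encoded by Slc1a2 is a known feature of the spinal cord in amyotrophic lateral sclerosis and in hSOD1G93A rats.

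The array medians lay between 129 and 137. Of the 11 astrocyte markers on the array 10 were above the filter level. Gfap, the astrocyte intermediate filament, was between 15999 and 17105 in NonTG and between 14400 and 16419 in hSOD1G93A. Aldh1l1 was dimmer, at 340 to 523, and Gjb6 lay below the filter, at 1.40 to 38.4. Of the 12 markers of microglia and macrophages on the array 2 were above the filter level, and of the 7 of endothelium again 2. All 8 markers of fibroblasts and meninges were above it, and so were 7 of 8 of pericytes and smooth muscle and 9 of 10 of neurons. Bulk arrays cannot tell fewer cells of a type from less RNA per cell.

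No member passed the test. Limma, adjusted by Benjamini-Hochberg across the 18625 probe sets tested, gave an adjusted p of 0.9997 for each of the 15, and called 0 of all probe sets (0%). The median difference over the 9 genes, each by its brightest tested probe set, was -0.018 on the log2 scale, with 4 genes higher and 5 lower in hSOD1G93A, against a median of 0.0030 over 10473 genes. At an unadjusted p below 0.05 stood 1 of the 15 member probe sets (Glud1 1370200_at), where 474 or 2.54% of all did. With the letter as a replicate block the unadjusted count was 2 of 15 (Glud1 1370200_at and Glul 1367632_at), against 5.85% of all, and the smallest adjusted p among members was 0.834. In the fit with no block, the count of 1 became 3 without hSOD1G93A A, where the share of all probe sets was 6.35%. It became 0 without NonTG B (2.29% of all), without hSOD1G93A B (2.09%) or without hSOD1G93A C (1.89%). With no intensity trend in the variance it was again 1 (3.13% of all), but this was Slc1a2 1369693_a_at and not Glud1 1370200_at. The 3 arrays of a group lay wholly above those of the other for 1 member probe set (Slc1a2 1369693_a_at), where 4% of all did so and another 3.51% lay wholly below, 7.51% in either direction.

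**Figure D1:**
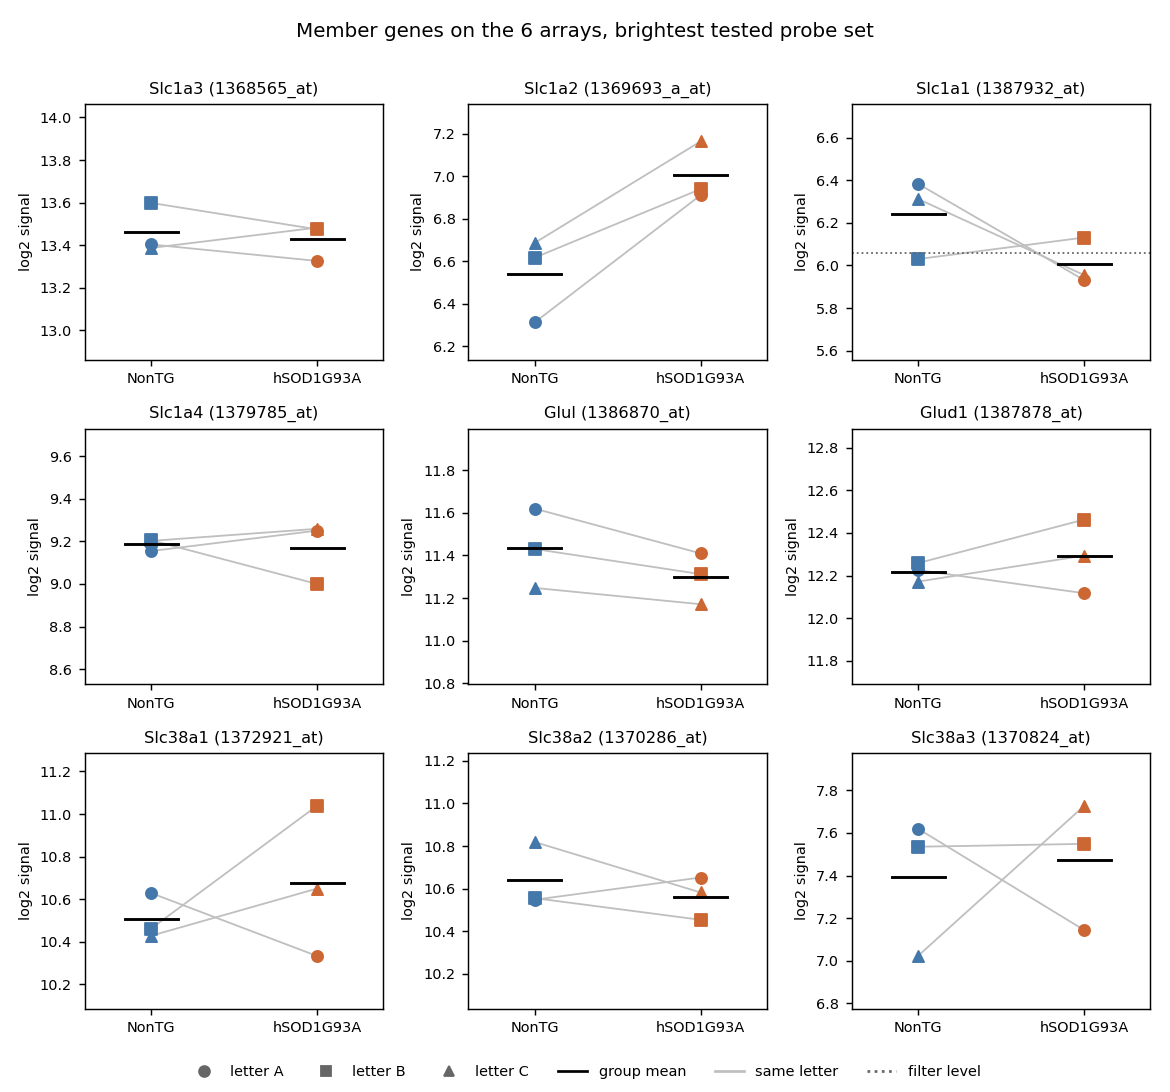
Log2 MAS5 signal of each member gene on the 6 arrays, for its brightest tested probe set, with NonTG in blue and hSOD1G93A in orange, a marker shape per letter, grey lines between arrays of the same letter and black bars at group means of 3 arrays; each vertical axis covers the same range of log2 units and the dotted line is the filter level. Only in the panel of Slc1a2 do the groups not overlap, with the highest NonTG array at 6.69 and the lowest hSOD1G93A array at 6.91, and Slc1a1 lies across the filter level.

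Slc1a3 encodes GLAST, a sodium-coupled glutamate transporter of astrocytes and radial glia. Its brightest probe set (1368565_at) read 10837, 12406 and 10714 in NonTG and 10270, 11383 and 11447 in hSOD1G93A, so that the groups overlapped. The difference was -0.035 (SE 0.081, 95% interval -0.22 to 0.15, limma), a fold of 0.976 between 0.860 and 1.11. The sign of so small a value depended on single arrays: it was 0.032 without NonTG B and 0.015 without hSOD1G93A A. A second probe set (1388064_a_at) read 4044, 4850 and 4546 against 4226, 5063 and 4786. Here the difference was 0.067 (SE 0.097, interval -0.15 to 0.28), but -0.0053 without NonTG A. In it hSOD1G93A lay higher within each letter, by 0.063, 0.062 and 0.074, and the 3 letters differed more from each other than the groups did. The dimmest (1371130_at) was below the filter level on all arrays, between 18.5 and 49.7.

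Slc1a2 encodes GLT-1, the transporter that carries most glutamate uptake in the adult forebrain and is low in astrocytes cultured without neurons. It had the largest difference among the members. The tested probe set (1369693_a_at) read 79.5, 98.2 and 103 in NonTG and 120, 123 and 143 in hSOD1G93A, with all 3 hSOD1G93A arrays above all 3 NonTG arrays. The difference was 0.47 (SE 0.23, 95% interval -0.058 to 0.99), a fold of 1.38 between 0.961 and 1.98, at an unadjusted p of 0.0751 in limma. With no intensity trend that p was 0.0140 (adjusted p = 0.9997). Within the letters A, B and C it was 0.60, 0.32 and 0.48, and it lay between 0.35 (without NonTG A) and 0.54 (without NonTG C) when an array was left out. A second probe set of the gene (1369694_at) gave no such order. It read 44.0, 83.2 and 69.4 in NonTG and 68.7, 101 and 40.6 in hSOD1G93A, was on average at 5.98 and 6.03 on the log2 scale and stayed under the filter. Both probe sets lay near the lower limit of measurement, so the level of Slc1a2 in these cultures rests on weak signals, and with a pseudocount of 16 the difference was 0.41. Markers of other cells also differed in their means between the groups. Of 6 oligodendrocyte lineage genes above the filter 5 were higher in hSOD1G93A, with a median of 0.44. The groups did not overlap for Mag (0.63) and Ugt8 (0.72), where 7.51% of all probe sets did not overlap in either direction. Both were dim, at 78.1 to 197 and 58.3 to 115. Of the brighter ones, Mbp was higher by 0.78 (SE 0.46), Cnp was lower (-0.18) and Olig1 differed by 0.13, all with overlapping groups. Of the 8 markers of fibroblasts and meninges 6 were lower and 2 higher, Dcn (2.52) and Lum (1.08), with a median of -0.15. All 7 markers of pericytes and smooth muscle above the filter had lower means, with a median of -0.30. The summed signal of all 8 such markers was 17562 on hSOD1G93A B. It was 29093 on hSOD1G93A A and 25088 on hSOD1G93A C, within the NonTG range of 23649 to 29516. None of these markers passed the adjusted threshold in limma, and their part in the difference of Slc1a2 was not tested.

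Slc1a1 encodes EAAC1, the glutamate and cysteine transporter best known from neurons, and Slc1a4 encodes ASCT1, a family member that carries neutral amino acids such as serine and alanine. Slc1a1 (1387932_at) read 83.5, 65.3 and 79.5 in NonTG and 61.0, 70.1 and 62.0 in hSOD1G93A, overlapping and in part under the filter level. Its difference was -0.24 (SE 0.29, interval -0.89 to 0.41), so that folds from 0.541 to 1.33 lay within the interval. The other Slc1a1 probe set (1370367_at) ranged from 33.0 to 38.6 in NonTG and from 4.82 to 69.0 in hSOD1G93A. Slc1a4 (1379785_at) was even: 570, 590 and 589 in NonTG and 609, 512 and 613 in hSOD1G93A, a difference of -0.018 (SE 0.12, interval -0.28 to 0.24). Its lowest array was hSOD1G93A B, and without it the difference was 0.067.

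Glul, glutamine synthetase, was read by 3 probe sets, and all 3 had lower means in hSOD1G93A. The brightest (1386870_at) read 3148, 2760 and 2432 in NonTG and 2721, 2543 and 2306 in hSOD1G93A. The difference was -0.14 (SE 0.11, 95% interval -0.38 to 0.11), with overlapping groups, and -0.041 without NonTG A. The next (1367632_at) read 2369, 2326 and 2030 against 2201, 1768 and 1834, which differed by -0.22 (SE 0.11, interval -0.46 to 0.028) at an unadjusted p of 0.0766 in limma. With the replicate block that p was 0.0277 (adjusted p = 0.834). The third (1367633_at) read 1594, 1457 and 1392 against 1508, 1262 and 1388, a difference of -0.097 (SE 0.10, interval -0.33 to 0.13), and -0.031 without hSOD1G93A B. In all 3 probe sets NonTG A was the highest array, and hSOD1G93A lay under NonTG within each letter, by -0.21, -0.12 and -0.077 for the brightest and by as little as -0.0046 for 1367633_at within C. Among all probe sets 12.2% were lower within all 3 letters, and the 3 probe sets of Glul read the same RNA, so they are not separate evidence. Their intervals reach folds of 0.767, 0.726 and 0.798 at the lower end and 1.08, 1.02 and 1.09 at the upper.

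Glud1, glutamate dehydrogenase, was read by 2 probe sets of unequal difference. The brighter (1387878_at) read 4790, 4900 and 4614 in NonTG and 4443, 5645 and 5021 in hSOD1G93A, a difference of 0.073 (SE 0.094, 95% interval -0.14 to 0.28), and -0.013 without hSOD1G93A B. The other (1370200_at) read 3487, 3300 and 2925 against 3442, 4147 and 3866. Its difference was 0.24 (SE 0.098, interval 0.016 to 0.46), or 1.18-fold, at an unadjusted p of 0.0383 in limma, the smallest of the members in this fit. With no intensity trend that p was 0.0953. Its groups overlapped because hSOD1G93A A lay under NonTG A, by -0.019, while letters B and C gave 0.33 and 0.40. In both probe sets the highest array was hSOD1G93A B.

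Slc38a3 (SNAT3) is the system N carrier through which astrocytes release glutamine. It was dim and uneven, at 197, 186 and 130 in NonTG and 141, 187 and 212 in hSOD1G93A (1370824_at). The difference was 0.081 (SE 0.24, interval -0.45 to 0.61), and the letters went apart, with -0.48 for A, 0.014 for B and 0.70 for C. Its sign turned without NonTG C (-0.10) and without hSOD1G93A C (-0.046).

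Slc38a1 (SNAT1) and Slc38a2 (SNAT2) are system A carriers that take up small neutral amino acids, glutamine among them. They are neighbours in the rat genome: on chromosome 7 of GRCr8 their start sites lie 61218 bases apart on the minus strand, with no other protein-coding gene between them in RefSeq. Because their signals on the arrays ran apart, as given next, their RefSeq promoter windows are shown, each from 250 bases before the start to 50 after, 5′ to 3′ on the minus strand, chr7:129681352-129681651 for Slc38a1 and chr7:129742570-129742869 for Slc38a2. Capitals mark matches on either strand to the CCAAT box (CCAAT), the GC box (GGGCGG), the TATA box (TATAAA) and the core of the amino acid response element (TGATGNAAN), the site through which ATF4 raises transcription when amino acids are short.
Slc38a1: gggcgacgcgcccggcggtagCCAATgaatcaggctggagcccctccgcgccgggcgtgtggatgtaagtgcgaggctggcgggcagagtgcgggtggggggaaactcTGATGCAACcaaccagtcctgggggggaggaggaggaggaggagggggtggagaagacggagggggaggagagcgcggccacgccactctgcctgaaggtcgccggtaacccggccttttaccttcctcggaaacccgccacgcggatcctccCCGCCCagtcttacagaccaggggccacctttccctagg
Slc38a2: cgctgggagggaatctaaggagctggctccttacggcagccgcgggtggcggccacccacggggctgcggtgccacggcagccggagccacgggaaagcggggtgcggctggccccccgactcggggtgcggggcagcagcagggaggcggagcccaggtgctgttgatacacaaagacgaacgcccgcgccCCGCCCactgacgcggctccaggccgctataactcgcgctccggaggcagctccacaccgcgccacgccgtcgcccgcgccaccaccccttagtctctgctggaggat
Both windows are rich in G and C, 68.0% and 72.3% against a median of 51.7% over 33469 rat promoter windows of that length. Each holds a GC box on the opposite strand, as 33.1% of all windows hold on either strand, and neither holds the TATA box (14.2%). The window of Slc38a1 alone also holds a CCAAT box (37.5%) and a match to the amino acid response core (3.97%). No match overlaps another. Bases outside these windows were not searched, so a window with no match does not show that its gene lacks the element. Whether any match bears on the signals was not tested.

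Slc38a1 had 3 tested probe sets, and on all 3 hSOD1G93A B was the highest array. The brightest (1372921_at) read 1584, 1411 and 1378 in NonTG and 1290, 2104 and 1607 in hSOD1G93A, so that hSOD1G93A held both the highest and the lowest array. The difference was 0.17 (SE 0.16, 95% interval -0.20 to 0.53), and -0.015 without hSOD1G93A B or 0.34 without hSOD1G93A A. The second (1370409_at) read 479, 443 and 437 against 404, 567 and 528, a difference of 0.13 (SE 0.15), or 0.028 without hSOD1G93A B and 0.27 without hSOD1G93A A. The third (1390559_at) read 204, 108 and 158 against 137, 271 and 166, a difference of 0.27 (SE 0.31), or -0.011 without hSOD1G93A B. Within the letters the brightest gave -0.30 for A, 0.58 for B and 0.22 for C, and the others had the same signs.

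Slc38a2 (1370286_at) ran apart from its neighbour, with its lowest value on the array where Slc38a1 was highest. It read 1497, 1505 and 1807 in NonTG and 1610, 1402 and 1533 in hSOD1G93A, a difference of -0.078 (SE 0.11, interval -0.32 to 0.16), and 0.011 without NonTG C. Asns, Slc7a11 and Slc3a2, also known to be induced by amino acid shortage, did not share 1 order. Asns, asparagine synthetase, had its highest value on NonTG C (1892) and its lowest on hSOD1G93A B (910), as Slc38a2 did, while Slc7a11 (629) and Slc3a2 (7799) were highest on hSOD1G93A B. These genes were set beside Slc38a2 after their values were seen, and other such genes were not compared here. The difference of Asns was -0.27 (SE 0.21, interval -0.74 to 0.19).

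The array hSOD1G93A B, on which Slc38a1, Glud1 and Slc1a3 1388064_a_at were highest and Slc38a2, Slc1a4 and 2 probe sets of Glul lowest, also stood apart in markers of other cells. The summed signal of the 8 markers of fibroblasts and meninges was 53588 there and between 66311 and 76224 on the other 5 arrays. Col1a1, Col3a1, Postn, Fn1 and Pdgfrb were lowest there, while Col1a2, Dcn and Lum were not. Dcn read 283 there and 59.1 to 92.3 in NonTG. The summed signal of the 8 markers of pericytes and smooth muscle was 17562 there and between 23649 and 29516 on the others. That of the 11 markers of the oligodendrocyte lineage, 7770, was the highest, against 5285 to 6285 on the others. Such a sum follows its brightest genes. Mbp was 2862 there and 592 to 2145 on the others. Olig1, at 2193, was also highest there, and Cnp, at 1931, lay within 1869 to 2466. The summed signal of the 11 astrocyte markers, 123178, lay within the range of the other arrays, 105221 to 123723, and that of the 10 neuron markers, 4624, within 4299 to 5185. The part of these cells in the values of the members was not tested. The array hSOD1G93A A had the lowest astrocyte sum and the lowest value of Slc1a3 1368565_at, Slc1a1 1387932_at, Glud1 1387878_at, and Slc38a1 1372921_at and 1370409_at.

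**Figure D2:**
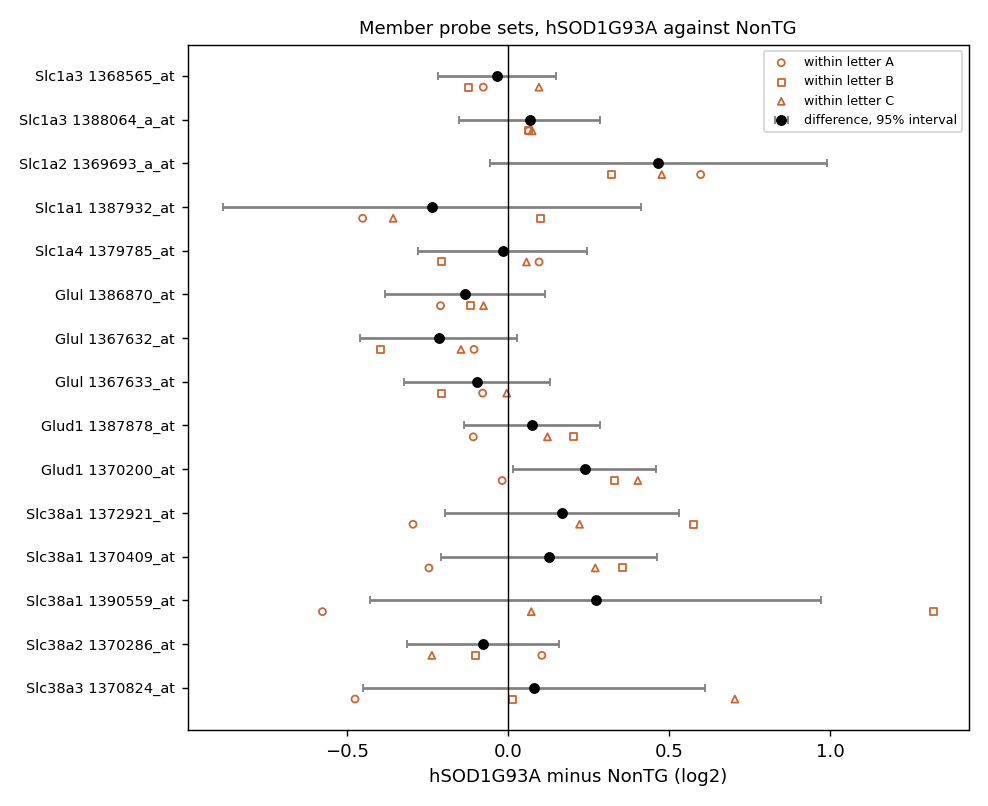
Difference of each of the 15 tested member probe sets, hSOD1G93A minus NonTG in log2 units, as black points with grey 95% intervals from limma over 3 arrays per group, and as open orange markers within each letter. The interval of Glud1 1370200_at alone does not include 0, and that of Slc1a2 reaches from -0.058 to 0.99. The letters do not cross 0 for Slc1a2, for any Glul probe set or for the dimmer of the tested Slc1a3 probe sets. For every other probe set they lie on both sides of 0, Glud1 1370200_at among them (-0.019 within A).

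The probe sets of each gene were compared with each other through the log2 ratio of their signals on the same array, which shows unequal change and not which probe set changed. In 6 pairs over 4 genes, exact two-sided permutation tests of 3 arrays against 3, which cannot go below 0.1, gave 0.1 for Glud1 and 0.3 to 0.9 for the others, and after Benjamini-Hochberg adjustment 0.6 to 0.9. For Glud1 the ratio of the brighter to the other probe set was 0.56 ± 0.10 (SD, n = 3) in NonTG and 0.40 ± 0.042 in hSOD1G93A. This ratio was lower in hSOD1G93A within each letter, by -0.090, -0.13 and -0.28. For Slc1a3 the ratio was 1.34 ± 0.094 and 1.24 ± 0.059, and for Slc38a1 (1372921_at over 1370409_at) 1.68 ± 0.037 and 1.73 ± 0.15.

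Across letters, 2 member probe sets of 15 were higher in hSOD1G93A within all 3 (Slc1a2 1369693_a_at and Slc1a3 1388064_a_at), where 13.5% of all probe sets were. The 3 of Glul were lower within all 3, so that 5 of 15 kept a sign, against 25.8% of all. Letter A departed from B and C for Slc38a1, Slc38a2, Slc38a3 and Glud1, with the other sign in each of their tested probe sets. Letter B had the other sign for Slc1a1 and Slc1a4, and letter C for Slc1a3 1368565_at.

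**Figure D3:**
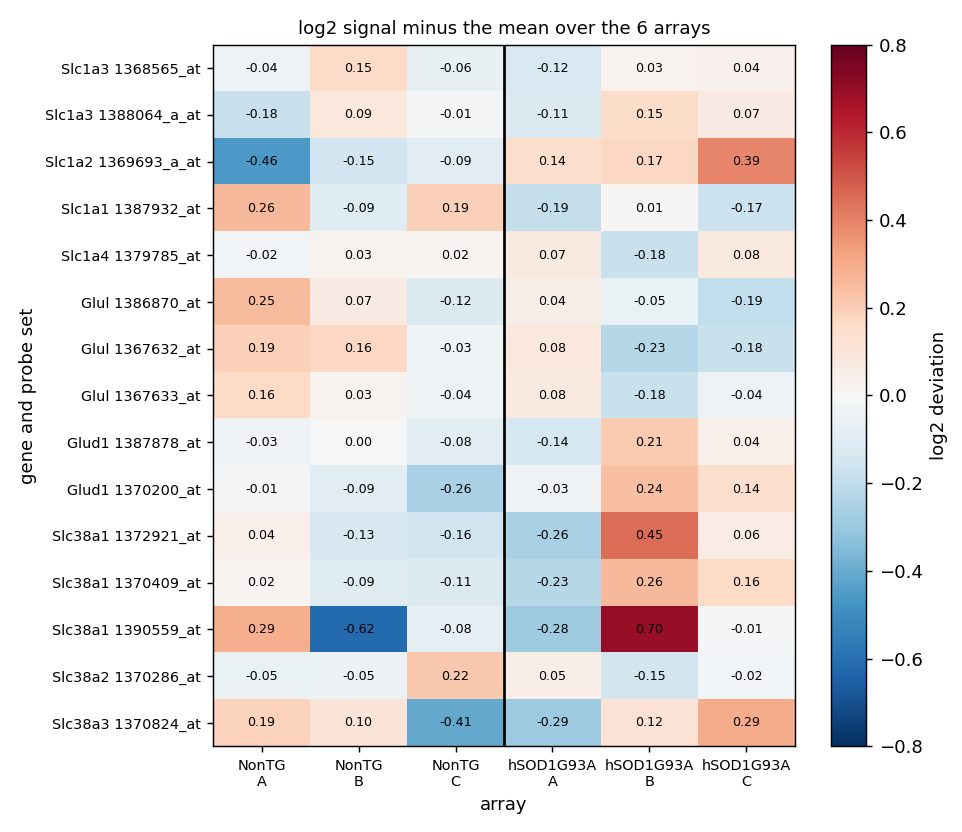
Log2 signal of the 15 tested member probe sets on each array minus the mean of that probe set over the 6 arrays, with the value printed in each cell and a black line between NonTG on the left and hSOD1G93A on the right. Slc1a2 changes colour at the line, the 3 probe sets of Slc38a1 share their highest cell on hSOD1G93A B, and Slc38a2 is lowest on that array.

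Other genes of glutamate and glutamine handling were taken from a list of 35, of which 31 were on the array under their symbol and 25 were tested. None passed the adjusted threshold in limma, 13 were higher and 12 lower in hSOD1G93A, and the median difference was 0.0016. At an unadjusted p below 0.05 stood 2 of 25, against the 2.54% of all probe sets. The first was Slc7a11, the light chain of the exchanger that imports cystine against glutamate, at 339, 438 and 350 in NonTG and 441, 629 and 518 in hSOD1G93A. Its groups did not overlap, and the difference was 0.49 (SE 0.17, interval 0.11 to 0.87, unadjusted p = 0.0161 in limma). The part of the cells whose markers are given with Slc1a2 was not tested for it either. Its partner Slc3a2, the heavy chain, differed by 0.0016 (SE 0.075).

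The second was Gls2, a mitochondrial glutaminase that turns glutamine back into glutamate, at 134, 190 and 236 in NonTG and 154, 66.0 and 107 in hSOD1G93A. The difference was -0.82 (SE 0.34, interval -1.58 to -0.062, unadjusted p = 0.0369 in limma), with overlapping groups and a letter A that went the other way, by 0.20 against -1.52 for B and -1.15 for C. The count of 2 was 3 with the replicate block (5.85% of all probe sets), which added Slc25a18, a mitochondrial glutamate carrier (0.23, SE 0.099 with the block, unadjusted p = 0.0412 in limma). With no block Slc25a18 had an SE of 0.26, an interval of -0.35 to 0.82 and an unadjusted p of 0.393 in limma. Its groups overlapped, and letter A gave -0.052. With no block the count was 0 without NonTG C (1.83% of all) or without hSOD1G93A B (2.09%) and 4 without hSOD1G93A A (6.35%).

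The 6 brightest of the list had intervals that all include 0. Besides Slc3a2 they were Arl6ip5, a protein that binds Slc1a1 and lowers its activity (0.014, SE 0.077), Atp1b2, the glial beta subunit of the sodium pump that keeps the gradient for uptake (0.26, SE 0.15), and Got2, the mitochondrial aspartate aminotransferase (0.040, SE 0.085). Oat, ornithine aminotransferase, differed by 0.014 (SE 0.082) and Gad1, which makes GABA from glutamate, by -0.032 (SE 0.14). Atp1b2 was highest on hSOD1G93A B, at 5317, and lowest on hSOD1G93A A, at 3416, as 2 of the 3 probe sets of Slc38a1 were. Slc17a7 and Slc17a6, which load glutamate into synaptic vesicles of neurons, were below the filter on average and reached at most 69.1 and 41.8.

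**Figure D4:**
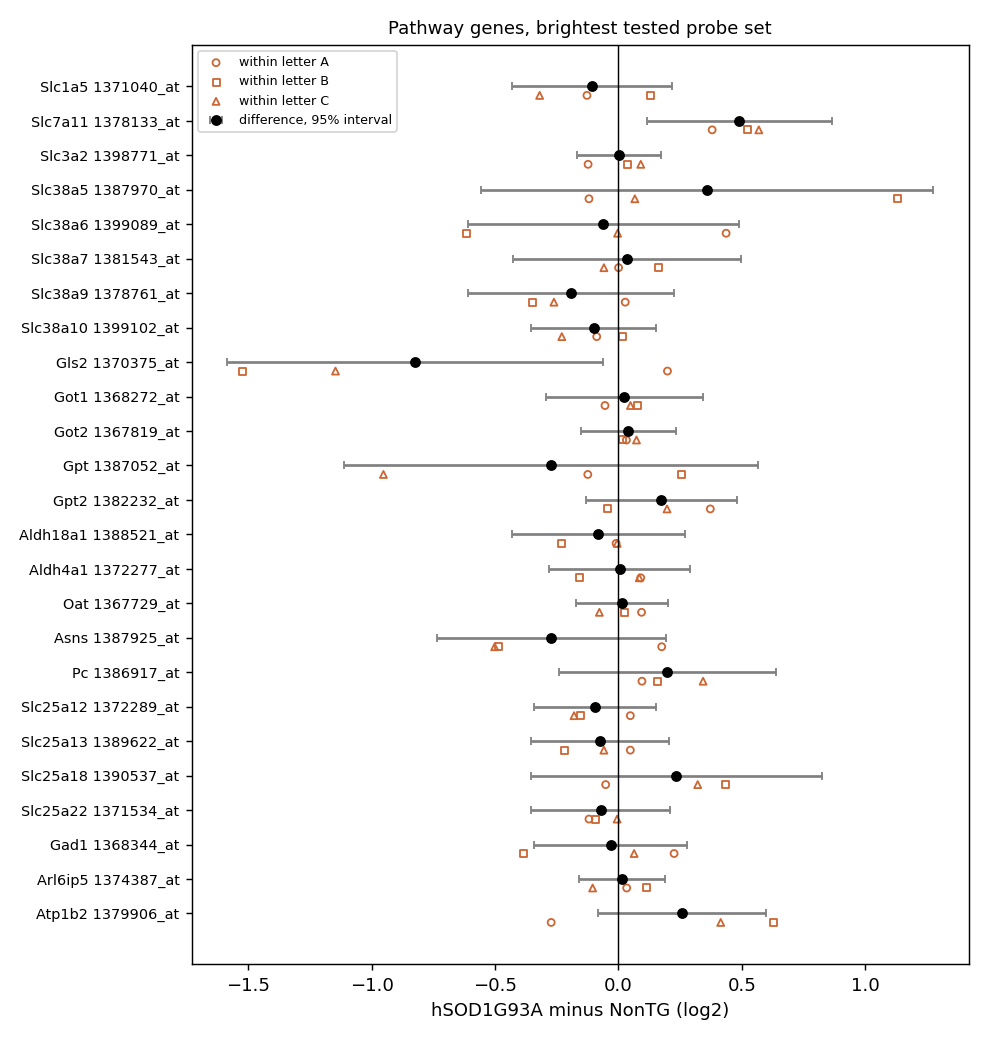
Difference of the 25 tested genes of the wider glutamate and glutamine list, by brightest tested probe set, hSOD1G93A minus NonTG in log2 units, with black points, grey 95% intervals from limma and open orange markers within each letter. The intervals of Slc7a11 (0.11 to 0.87) and Gls2 (-1.58 to -0.062) leave out 0 with no adjustment, and 23 others include it.

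The genes most like a member over the 6 arrays were found by Pearson correlation of log2 signals among 10472 genes, as a description, since over 6 arrays 64 to 93 genes exceed 0.9 for each member searched. For Slc1a2 they were Rab15 (r = 0.984), Rnf115 (0.976) and Enox2 (0.971). For Slc1a3 they were Tnfaip3 (0.999), Psmb7 (0.993) and Dhrs11 (0.992), and for Glul Zfp275 (0.993), Rragc (0.990) and Samm50 (0.984). Arrays of the same letter and group are shared by all of these values.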

How the data were processed

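Each probe set has 1 deposited intensity per array. It is linear, and the submitters' processing notes name MAS5 and GCOS 1.4 as the authors' tools for it. The design text instead speaks of GC-RMA in ArrayAssist, but the values are linear and their mean after trimming 2% at each end was 500.2 on all 6 arrays. Each array took 5 ug of total RNA, per the labels. Of 31099 rows, 57 controls were left out. By Entrez identifier, all 18 member probe sets carry the same symbol in RefSeq's rat gene table. Detection calls were not used here.

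Log2 values, with no pseudocount, were fitted with lmFit and trended eBayes (limma 3.58.1, R 4.3.3). Tests were two-sided, p-values were adjusted by Benjamini-Hochberg across the 18625 probe sets above the filter, and 0.05 was the threshold. The fit was tested on simulated data, in which the planted changes were larger than any member difference. That test does not show whether differences as small as those of the members would be called. The number of arrays limits the precision. Named were all members, pathway genes with an unadjusted p below 0.05 or among the 6 brightest, and the 3 genes most like Slc1a2, Slc1a3 and Glul. Asns, Slc17a6, Slc17a7 and all cell markers given by name fall outside this rule and were named after their values were seen. Members and lists were chosen with earlier results of these data known.

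To check whether letters pair arrays, log2 values minus their group's mean were correlated across groups: same-letter correlations were 0.30, 0.25 and 0.20, and all others lay between -0.28 and 0.025. Subtracting a group's mean makes the deviations of its arrays add to 0. The low values between unlike letters follow in part from that and are not separate support. From the same-letter values, and not from a statement in the labels, the letters were read as pairs for the within-letter differences and the replicate block. The main fit has no letter term, so its SEs, intervals and p-values are unpaired. Alternatives were other filters, quantile normalization, a pseudocount of 16, no trend, a replicate block, array weights, the mean over probe sets and each array left out.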

Additional observations from a re-analysis of the deposited data

How the results depend on the processing

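Under all 14 alternatives to the fit, limma called 0 of all probe sets, 0 of the members and 0 of the pathway genes, with a smallest adjusted p among members of 0.762 (without hSOD1G93A A). The replicate block left all 3 counts at 0. Members at an unadjusted p below 0.05 numbered between 0 and 3 under them. Slc1a2 was among them with the letter as a random effect (unadjusted p = 0.0441 in limma, 1 of 3) and with no intensity trend (0.0140, 1 of 1). Of all 18625 probe sets 1005 stood below 0.05 with the random effect, against 474 in the main fit, and 3.13% did with no trend. Its adjusted p in limma ranged from 0.809 to 1 over the alternatives. Over all probe sets the unadjusted count was 474 of 18625 as reported. With a filter at the 60th percentile it was 283, but of only 12417 tested. Among fits of 18625 it ran from 340 without NonTG C (1.83%) to 1183 without hSOD1G93A A, with 1090 under the replicate block. Of 210 member differences under the alternatives 13 had the other sign, and 7 of 15 probe sets kept their sign throughout: those of Slc1a2, Slc1a1, all 3 of Glul, Glud1 1370200_at and Slc38a1 1370409_at. Slc1a3 1368565_at was 0.024 after quantile normalization and 0.016 as the mean over tested probe sets, and Slc1a4 was 0.0099 with array weights. The cause was not tested. With each array left out in turn, ranges were -0.073 to 0.032 for Slc1a3 1368565_at, -0.0053 to 0.14 for 1388064_a_at, -0.062 to 0.067 for Slc1a4, -0.013 to 0.16 for Glud1 1387878_at, -0.12 to 0.011 for Slc38a2 and -0.10 to 0.25 for Slc38a3. They were -0.23 to -0.041, -0.31 to -0.15 and -0.16 to -0.031 for Glul 1386870_at, 1367632_at and 1367633_at, -0.34 to -0.17 for Slc1a1, 0.17 to 0.31 for Glud1 1370200_at and 0.028 to 0.27 for Slc38a1 1370409_at. They were -0.015 to 0.34 for Slc38a1 1372921_at and -0.011 to 0.49 for 1390559_at. Of the ratios between probe sets, 4 of 54 values had the other sign. With an array left out, these ratios differed between groups by -0.11 to 0.029 for Glul 1386870_at over 1367633_at, by -0.042 to 0.10 for Slc38a1 1372921_at over 1370409_at and by -0.26 to 0.12 for 1372921_at over 1390559_at.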
